A study of Mus musculus with 4 samples.

Results

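Transfer RNA (tRNA) genes with a Trim33 summit in the gene or within 1000 bp were described in mouse T helper 17 (Th17) cells. A summit is the base of highest signal in a peak of chromatin immunoprecipitation followed by sequencing (ChIP-seq). The tRNA genes were those annotated by RefSeq on chromosomes 1 to 19, and 72 of 391 met the rule. They lay near 55 of the 27050 peaks in the deposited list. The cells were primary C57BL/6 Th17 cells, differentiated in culture from naive CD4+ T cells of spleen and lymph nodes. Plates were coated with antibodies to CD3 and CD28, and the medium held IL-6, TGF-b and antibodies to IL-4 and IFN-g. The labels give 2 libraries made with a Bethyl antibody to Trim33 and 2 input DNA libraries without antibody, and no gene deletion or further treatment is named. The list came from merged Trim33 replicates, so each peak has 1 value and no spread between cultures can be given. It holds no expression values, so the Th17 label could not be checked against marker transcripts.

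RNA polymerase III (Pol III) makes tRNAs from very short genes whose promoter lies inside the transcribed part, as an A box and a B box that the factor TFIIIC binds. Transcription stops at a short run of T just after the gene. Mammalian tRNA genes are present in many near-identical copies, often in clusters, and many sit beside the promoters of protein-coding genes. Trim33 is a chromatin-associated ubiquitin ligase with a PHD finger and bromodomain, known for its part in TGF-beta signalling. RefSeq symbols carry the amino acid letter and the anticodon, so n-TLaag4 is a leucine tRNA gene with anticodon AAG.

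The RefSeq promoter windows of other genes (GRCm38.p6, the assembly of mm10; 250 bases before to 50 after each start) reached into 7 of the 72 genes, and the table holds no window of a tRNA gene itself. In 5 of the 7 the core letters of the B box, GGTTCGA, were found on 1 strand, which was taken as the strand of the gene. Their sequences are shown 5′ to 3′ in lower case with these letters in capitals, because they show what lies beside the summits. The windows showed only 17 of the 107 bases of n-TLcaa3 and 25 of the 73 bases of n-TRacg6. These letters could lie in the bases not shown. Of the genes printed, n-TLaag4 lacks its first 11 bases here and n-TNgtt7 its first 40.
n-TLaag4: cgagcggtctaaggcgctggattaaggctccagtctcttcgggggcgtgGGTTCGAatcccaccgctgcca
n-TTagt9: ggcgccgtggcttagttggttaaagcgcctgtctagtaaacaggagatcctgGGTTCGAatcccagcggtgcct
n-TRtcg5: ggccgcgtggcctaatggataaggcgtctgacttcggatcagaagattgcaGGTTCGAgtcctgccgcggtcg
n-TVcac9: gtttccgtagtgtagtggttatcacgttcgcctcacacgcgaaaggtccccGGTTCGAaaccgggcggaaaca
n-TNgtt7: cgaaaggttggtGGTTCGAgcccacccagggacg

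The anticodon of the symbol was found at position 34 or 35 of the 4 genes whose sequence reaches it, counted from the first base of the gene, and in n-TVcac9 a second match followed 2 bases later. The summit lay on the 5′ side of n-TTagt9 (85 bp) and n-TRtcg5 (277 bp). It lay on the 3′ side of n-TLaag4 (70 bp), n-TNgtt7 (187 bp) and n-TVcac9 (263 bp). In 4 of the 5 the first TTTT after the gene began 9 to 13 bases from its end, in n-TLaag4, n-TNgtt7, n-TRtcg5 and n-TVcac9. The window of n-TTagt9 ended too soon after the gene to show a run at that distance. Summits were thus found on either side of these genes, and for the other members the strand was not used here. The letters GGTTCGA occurred on either strand in 299 of 32817 RefSeq promoter windows (0.911%). A match describes letters and is not a measured binding site.

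The highest summit at a protein-coding gene end lay between n-TLaag4 and Polr3e, which encodes a subunit of Pol III itself. The peak ran from 120917507 to 120917837 on chromosome 7. The stretch before the annotated start of Polr3e, chr7:120917528-120917777 on the plus strand, is shown with the bases of n-TLaag4 in capitals.
Polr3e stretch: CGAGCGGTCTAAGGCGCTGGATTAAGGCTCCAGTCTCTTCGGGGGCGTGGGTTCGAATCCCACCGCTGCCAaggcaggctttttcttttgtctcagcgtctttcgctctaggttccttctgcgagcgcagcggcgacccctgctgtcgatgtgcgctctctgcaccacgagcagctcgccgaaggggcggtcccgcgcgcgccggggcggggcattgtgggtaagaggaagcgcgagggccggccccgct
The summit was base 141 of this stretch, 70 bp beyond the tRNA gene and 110 bp before the start of Polr3e, with 11.8-fold enrichment. The next stretch, chr7:35234765-35235064 on the plus strand, lies at the start of the long non-coding RNA gene Gm38989 and holds all of n-TTagt9, which is read from the minus strand, in capitals.
Gm38989 stretch: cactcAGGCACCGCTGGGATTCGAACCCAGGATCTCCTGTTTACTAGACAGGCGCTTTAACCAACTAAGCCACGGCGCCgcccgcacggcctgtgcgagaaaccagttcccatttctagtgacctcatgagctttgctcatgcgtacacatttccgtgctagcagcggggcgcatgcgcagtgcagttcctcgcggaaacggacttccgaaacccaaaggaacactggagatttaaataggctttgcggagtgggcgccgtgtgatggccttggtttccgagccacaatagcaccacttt
Its summit was base 164, with 5.65-fold enrichment. At Ndufs7, which encodes a subunit of respiratory complex I, the summit had 6.01-fold enrichment. It lay 314 bp inside the lower end of the annotated gene, but 30 bp before the start used for the promoter window of Ndufs7. It was 187 bp from n-TNgtt7 and 383 bp from the neighbouring tRNA gene n-TFgaa3. Among the peaks nearest to a member, 14 had their summit in 16 such windows, and 3 of these windows held these B box letters. The farther summits of the 3 members with 2 summits were not looked up in these windows.

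Since the members were chosen by their summits, counts and folds of these peaks are a description with no test. Of all tRNA genes, 18.4% met the rule (95% exact binomial interval 14.7% to 22.6%, counting error only). The same window found 6.69% of miRNA genes, 4.62% of snRNA genes and 2.95% of snoRNA genes, which are also short. Within 1000 bp of a tRNA gene there were 85.8 summits per Mb, against 10.9 over the annotated span of these chromosomes. With bases near protein-coding gene ends left out, the density around tRNA genes was 57.5 per Mb. The 10.9 per Mb includes bases near such ends. The density of the whole span without them was not computed, so 57.5 has no like comparison.

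The density followed the distance from the gene. It was 116 summits per Mb at 1 to 100 bp (9 summits), 139 at 101 to 250 bp (15) and 129 at 251 to 500 bp (20). At 501 to 1000 bp it was 40.5 per Mb (11 summits). Beyond the window that chose the members it was 25.5 per Mb at 1001 to 2000 bp and 13.9 at 2001 to 5000 bp, then 26.4 at 5001 to 10000 bp and 31.7 at 10001 to 20000 bp. Away from coding gene ends the 3 nearest bins had 87.5, 94.7 and 101 per Mb, and 501 to 1000 bp had 16.3.

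No summit lay inside a tRNA gene. The 391 genes cover 29195 bases. Taking 3 summits as a rough upper limit for a count of 0 gives 103 per Mb, beside 129 per Mb over the first 500 bp outside. The latter rests on 44 summits and has a counting error of its own, so the difference was not tested. Away from coding gene ends the limit was 117 per Mb, which is above the 96.1 per Mb of the first 500 bp there. A lower density inside the genes was thus not detectable there, with only 25681 bases inside. Among the other short genes, summits lay inside 6 of 1136 miRNA, 5 of 931 snRNA and 3 of 1286 snoRNA genes. How reads that match several copies were treated is not given in the sources used here, and its part in the empty gene bodies was not tested.

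**Figure D1:**
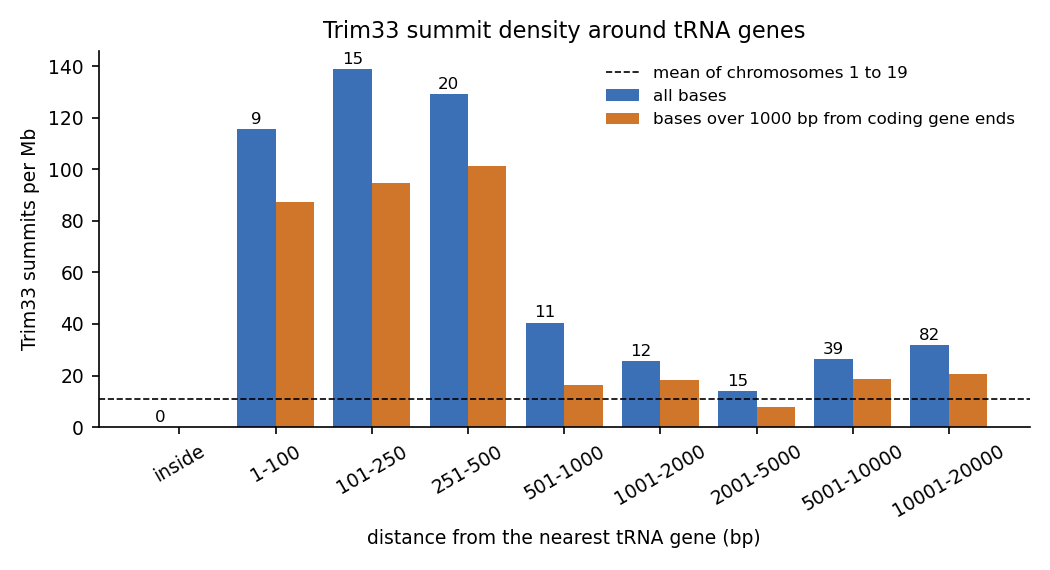
Trim33 summits per Mb (y axis) by distance from the nearest of 391 tRNA genes (x axis, bp), for all bases (blue, number of summits above each bar) and for bases over 1000 bp from protein-coding gene ends (orange). The dashed line is the mean of chromosomes 1 to 19 over all bases, those near coding gene ends included. The first 500 bp hold 44 of the 55 summits and the genes themselves none.

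The median distance from a member to its nearest summit was 307 bp (quartiles 161 and 509 bp), with the summit at the lower coordinate side of 34 genes and the upper side of 38. The closest were n-TVaac3 at 6 bp (6.61-fold) and n-TVaac8 at 7 bp (5.75-fold), both valine tRNA genes with anticodon AAC. Summits lay within 100 bp of 9 members. The peak interval covered at least 1 base of 19 members and the whole of 6, which were n-TYgta2, n-TVaac8, n-TTagt9, n-TLaag4, n-TWcca2 and n-TVaac3. For the other 53 the nearest peak touched no base of the gene. Of the members just inside the limit, n-TQctg6 was 987 bp, n-TRtcg4 983 bp and n-TRacg5 913 bp from a summit. Just outside were n-TYgta3 at 1012 bp, n-TAagc15 at 1114 bp and n-TAagc13 at 1235 bp.

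The authors' fold enrichment of the 55 peaks had its lowest value at 2.87, its median at 5.75 and its highest value at 13.02, with quartiles of 4.62 and 6.66, beside a median of 6.00 in the whole list. Of the 55, 23 reached the list's median and 3 reached 10-fold. The median width was 227 bp, as in the whole list. The highest was the 13.02-fold peak on chromosome 19 at 12012312 to 12012568, rank 1072 of the list. It lay 94 bp from n-TVtac2, 429 bp from n-TVtac1 and 759 bp from n-TRtct1, which are 2 valine and 1 arginine tRNA genes. The Polr3e peak followed, and then a 10.3-fold peak 161 bp from the threonine gene n-TTcgt5 on chromosome 16. The lysine gene n-TKctt18 on chromosome 9 had 2 summits, of 9.19-fold at 167 bp on its lower side and 4.79-fold at 274 bp on its upper side. The serine gene n-TSgct5 had 7.98-fold at 355 bp, the asparagine gene n-TNgtt14 7.32-fold at 160 bp and the arginine gene n-TRcct1 7.15-fold at 791 bp. Members near and far had overlapping folds. The median was 6.61 at 1 to 100 bp, 4.97 at 101 to 250 bp, 6.05 at 251 to 500 bp and 4.99 at 501 to 1000 bp.

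**Figure D2:**
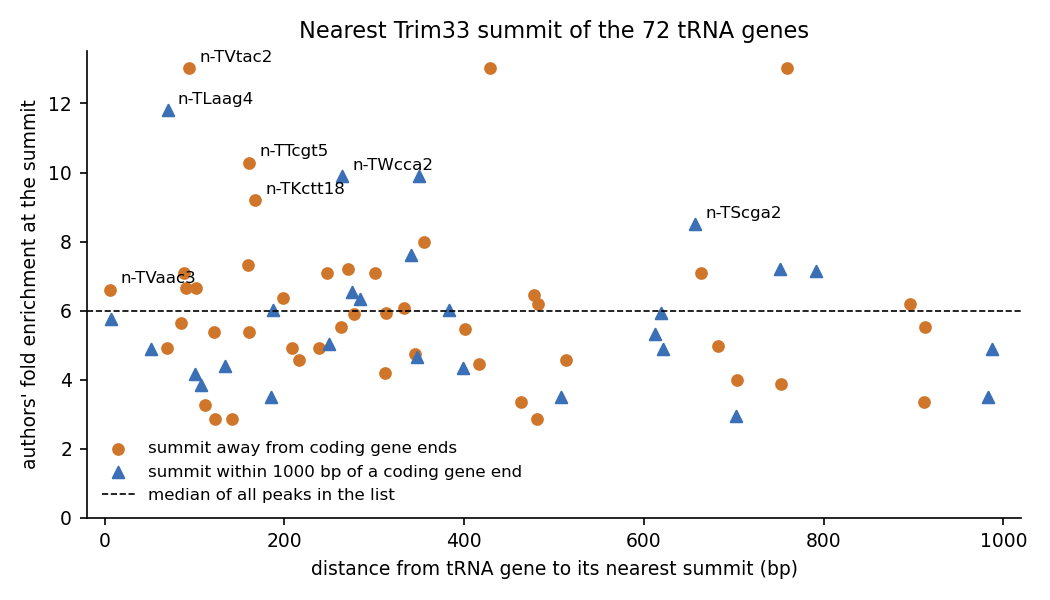
Authors' fold enrichment of the nearest summit (y axis) against its distance from the tRNA gene (x axis, bp) for 72 tRNA genes, 1 point a gene, with triangles for the 27 whose summit lies at a protein-coding gene end. Genes that share a peak have the same fold; folds run from 2.87 to 13.02 and the 2 classes overlap over most of that range.

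Of the 72 members, 27 (37.5%) had their nearest summit no farther than 1000 bp from a protein-coding gene end, at 21 peaks. Another such peak, at Elf1, was the farther of 2 summits of n-TEttc4, so 22 of the 55 peaks lay at coding gene ends. Of all peaks on chromosomes 1 to 19, 27.6% lay at such an end. Position of the tRNA gene itself gave a like division, with 26 members in both counts. Of 47 tRNA genes within 1000 bp of a coding gene end 27 were members (57.4%, interval 42.2% to 71.7%), and of the 344 others 45 were (13.1%, 9.70% to 17.1%). Among all protein-coding genes of these chromosomes 34.6% had a summit no farther than 1000 bp from either end. The median fold was 5.83 for the 22 peaks at coding gene ends and 5.65 for the 33 others.

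At 10 of these 27 members the summit was within 100 bp of the coding gene end. Ends were the outermost edges of each annotated gene, and a promoter window can be set from another start. At Lasp1 the summit was 584 bp from the edge but 24 bp after the start used for its window. The peak at Tmpo, which encodes a protein of the inner nuclear membrane, had 9.90-fold enrichment at 5 bp from the gene's upper end. It lay between n-TWcca2, at 264 bp, and n-TDgtc16, at 350 bp. At Smarcc2, which encodes a subunit of a chromatin remodelling complex, the summit was 20 bp from the gene end and 657 bp from n-TScga2, with 8.52-fold enrichment. At Lta4h, which encodes a hydrolase of leukotriene synthesis, it was 6 bp from the end and 341 bp from n-TDgtc8 (7.62-fold). The proteasome gene Psma3 had 7.21-fold enrichment at 660 bp, with n-TKctt17 at 751 bp, and Psmb3 had 2.96-fold at 209 bp, with n-TNgtt8 at 703 bp.

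The summit near n-TVaac8 was 7 bp from it and 738 bp from the zinc finger gene Mynn. The nearer of 2 summits of n-TRtct4 was 52 bp away and 434 bp from the end of Hes7, with 4.90-fold enrichment. Its other summit, of 5.20-fold at 709 bp, lay inside Hes7 and 1281 bp from the end of that gene. The glutamate gene n-TEttc4 lay between a 4.17-fold summit at 101 bp, 572 bp from Wbp4, and a 5.92-fold summit at 568 bp, 74 bp from Elf1, which encodes an ETS factor of lymphocytes. By contrast, the methionine gene n-TMcat9 had its summit 619 bp away and 6 bp from the histone gene H4c8 (5.92-fold).

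The remaining 45 members had no protein-coding gene end within 1000 bp of their nearest summit. For 27 the nearest was within 10 kb, for 17 it was farther, and for 1, n-TRtcg5, the summit was inside the gene body of Polg. Ends of long non-coding RNA genes were within 1000 bp of the summit in 16 of the 45. The share of all peaks at such ends was not computed, so this count has no comparison. Among the 16, n-TCgca52 had a 6.45-fold summit at 478 bp that was 32 bp from Trmt61b, which RefSeq lists as non-coding in the mouse. The farthest from coding genes was n-TEttc7 on chromosome 7, whose 6.66-fold summit was 102 bp from the tRNA gene and 256929 bp from Atp10a. The tryptophan gene n-TWcca5 followed with 4.73-fold at 345 bp and 29490 bp from Slc47a1. The asparagine gene n-TNgtt12 had 4.18-fold at 312 bp and 27694 bp from Hjv.

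Clusters were formed by joining tRNA genes with gaps of up to 10 kb. This gave 62 clusters of 2 or more genes and left 101 genes alone. Members lay in 50 of these 163 units, 29 of them alone. Of the genes alone 28.7% were members, of those in clusters of 2 to 4 25.7%, in clusters of 5 to 9 13.6%, and in clusters of 10 or more 3.49% (3 of 86, interval 0.725% to 9.86%). For tRNA genes over 1000 bp from coding gene ends these shares were 18.99%, 19.3%, 10.6% and 3.61%, so that genes alone and clusters of 2 to 4 changed places and larger clusters again had the lower shares. Whether reads could be placed equally well in large clusters was not tested. Of the 6 clusters with 10 or more genes, 1 on chromosome 13 held all 3 members, n-TYgta7 with 7.20-fold and n-TVcac9 and n-TRacg5 at 1 peak of 5.51-fold. On chromosome 6, clusters of 22 and 10 cysteine genes held no member. The 86 genes thus come from only 6 clusters, while the interval given for them treats each gene as independent.

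The 13 clusters with 2 or more members held 35 of the 72, and in 7 of them every tRNA gene was a member. On chromosome 3, at 19627959 to 19629067, all 4 genes (n-TRacg3, n-TYgta1, n-TYgta2 and n-TAagc14) lay within 1000 bp of 1 summit of 7.10-fold. That peak was 587 bp wide, covered n-TYgta2 whole and was 15650 bp from the nearest coding gene end. On chromosome 19 the 13.02-fold summit lay beyond the last of 8 genes, and 3 of the 8 were members. On chromosome 14, at 51063883 to 51065240, n-TLaag8 had a 5.47-fold summit, and a 5.39-fold summit lay between n-TPagg4 and n-TTtgt3.

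Chromosome 11 held 15 members, in several small clusters with lower folds. The peak between n-TVaac7 and n-TLaag6, which also took in n-TPtgg4, had the lowest fold of all, 2.87. The arginine genes n-TRcct5, n-TRcct3 and n-TRtcg4 shared a 3.50-fold peak on the side of Mrpl58, which encodes a protein of the mitochondrial ribosome. The 3 members n-TRtct4, n-TLtag3 and n-TQctg6 shared the Hes7 peak of 4.90-fold, and n-TEctc10 and n-TLcaa3 shared 1 of 4.57-fold. On chromosome 13, which has 105 tRNA genes, 13 were members. There n-TMcat15, n-TLaag7 and n-TLaag5 shared a 4.91-fold peak and n-TGgcc7 and n-TMcat7 a 6.19-fold peak. On chromosome 5 n-TDgtc15 and n-TFgaa7 shared 3.35-fold. In all, 13 peaks had 2 or more members and 33 members had such a peak, so members are not independent of each other.

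**Figure D3:**
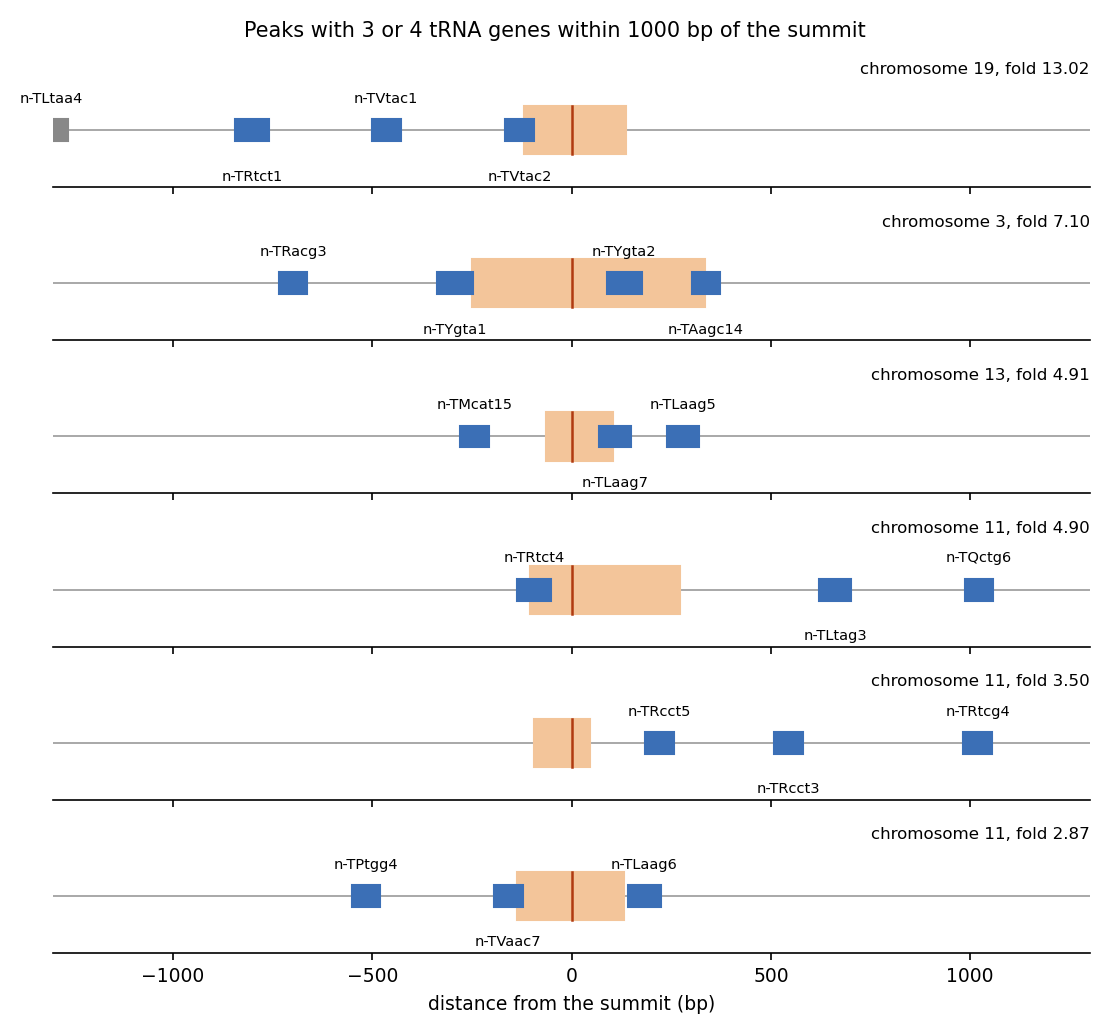
The 6 peaks with 3 or 4 tRNA genes within 1000 bp of the summit, drawn to scale against distance from the summit (x axis, bp), with the peak in orange, its summit as a red line, members in blue and another tRNA gene in grey. The summit lies between tRNA genes in 4 panels and beyond the members on 1 side in the other 2, and it is inside no gene.

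By amino acid the members covered 19 of 20 groups, and 34 of 48 anticodons. Arginine had 11 of 23 genes, methionine 7 of 16, tyrosine 4 of 10, leucine 9 of 26 and valine 7 of 23. The arginine members lay at 9 peaks and the methionine members at 7, so neither count comes from 1 cluster by the 10 kb rule. Still, the methionine members n-TMcat15, n-TMcat13, n-TMcat7, n-TMcat8 and n-TMcat9 all lay on chromosome 13 between 21169687 and 23530419. Of the leucine genes with anticodon AAG, 5 of 6 were members, of which n-TLaag7 and n-TLaag5 shared a peak, while none of 10 with anticodon CAG was. Of the arginine genes with anticodon ACG 4 of 6 were members, and none of 3 with CCG. The AAG gene left out, Trnal-aag, lay 3093287 bp from the nearest summit, in a cluster of 4 at 8361 to 11797 on chromosome 11. That cluster has the span (3437 bp) and anticodons of the cluster of n-TLaag6. It may be a second entry of it, which was not tested. All counts of tRNA genes and clusters here include it, and Trnav-cac at 1440395 on chromosome 11. Cysteine had 2 of 57 genes, of which 49 lie on chromosome 6, and neither member, n-TCgca51 (5.34-fold) and n-TCgca52, was there. Without the cysteine genes the share of tRNA genes with a summit was 21.0% (70 of 334). Alanine had 1 of 21 genes, isoleucine 1 of 16, glycine 2 of 28 and lysine 2 of 25. No histidine gene of 11 was a member (exact interval 0% to 28.5%). Tyrosine genes carry introns. Of the 35 tRNA genes over 82 bp long, which include leucine genes of 83 bp such as n-TLcag3, 9 were members. Introns were not looked up, so this is not a share of genes with introns.

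**Figure D4:**
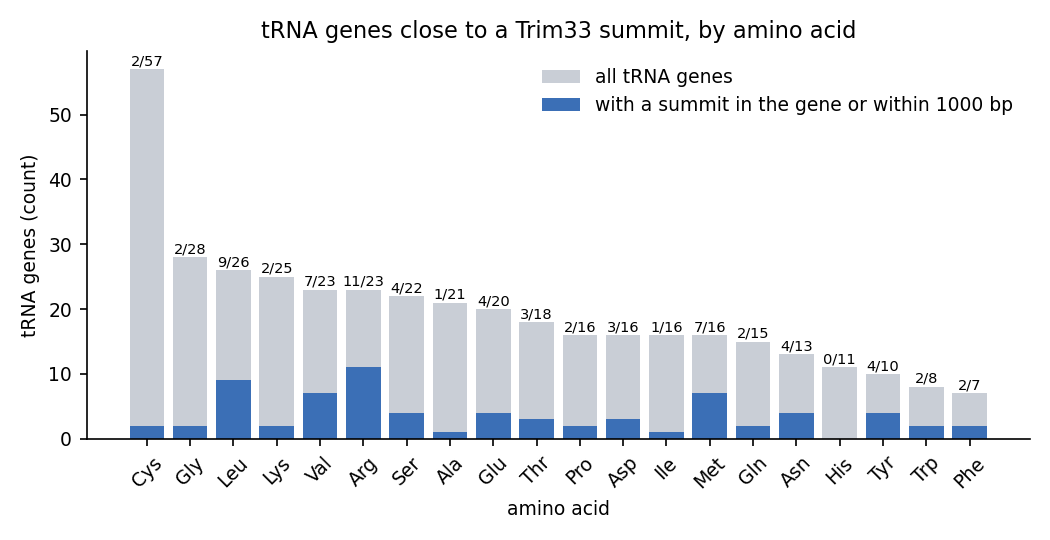
Number of tRNA genes (y axis) by amino acid (x axis) on chromosomes 1 to 19, all genes in grey and those with a summit in the gene or within 1000 bp in blue, with both counts above each bar. Arginine has 11 of 23 and cysteine 2 of 57.

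The genes that make and use tRNAs were looked at by the same list. Of the 36 genes for Pol III subunits and its factors, 29 (80.6%) had a gene-end summit by the same distance, against 34.6% of all protein-coding genes. The latter include genes that may be silent in Th17 cells. Without expression values, neither this share nor those of the synthetase and processing genes below could be set beside genes of like expression. After Polr3e the highest were Polr3c (11.3-fold, 11 bp from the end) and the gene of the largest subunit, Polr3a (9.89-fold, 4 bp). All 6 TFIIIC genes had one, from 4.20-fold at Gtf3c1 to 8.27-fold at Gtf3c3, and so did Brf1 (6.05-fold), a subunit of the initiation factor TFIIIB, and Maf1 (6.02-fold), the repressor of Pol III. Polr3d and Polr3gl had none, nor did the third TFIIIB subunit gene Bdp1.

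Of 21 aminoacyl-tRNA synthetase genes 15 (71.4%) had a gene-end summit, the highest at Vars (13.1-fold), Yars (12.3-fold) and Nars (9.81-fold), and Eprs and Farsa had none. Of 31 tRNA processing and modification genes 22 (71.0%) had one. Adat2, a subunit of the deaminase that makes inosine in anticodons, reached 12.98-fold, Thg1l 10.5-fold and Pop4 9.42-fold, and Rpp21 and Rpp25 had none.

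Genes of other Pol III transcripts were set beside the tRNA genes. Rmrp, the RNA of RNase MRP, had a 7.70-fold summit inside the gene, Bc1 6.39-fold at 446 bp and Rpph1, the RNA of RNase P, 6.16-fold at 40 bp. Vaultrc5, the gene of a vault RNA, also had its summit inside the gene (5.04-fold). Rn7sk, Rn7s1 and Rn7s2 had summits of 4.04-fold to 5.17-fold outside the gene. None of 64 n-R5s (5S ribosomal RNA) genes and pseudogenes was within 1000 bp of a summit, and Rny1, Rny3 and Rnu6 had none either. Of the 64, 15 are pseudogenes, and many of the others lie close together on chromosome 8. Whether reads could be placed equally well in these copies was not tested, so the lack of summits there is not a measured absence of Trim33. In all 7 of 74 (9.46%) met the rule, beside 18.4% of tRNA genes, and 64 of the 74 were the n-R5s entries.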

How the data were processed

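Trim33 ChIP-seq and input DNA were sequenced from cultured mouse Th17 cells. The submitters' processing notes name mm10 and 3 tools, which are MACS2 2.1.1.20160309, Bowtie 1.2.1.1 and Trim Galore 0.3.7. Their settings, threshold and control are unknown here. The authors deposited 1 list of peaks on merged replicates, whose fold enrichment is a ratio at the summit over background, beside a −log10 q. The score column of the deposited list restates that −log10 q and was not used. Depth per library is unknown.

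Summits were compared with RefSeq gene positions (GRCm38.p6) in Python 3.11.15 with pandas 2.3.3. Distances run from the nearer gene edge. Shares have exact Clopper-Pearson intervals for counting error only. These treat tRNA genes as independent, though neighbours can share a peak, so they are too narrow where that happens. No test was run, because the summits chose the members. The code was tested on simulated summits. Members, lists and alternatives were chosen with earlier results of these data known. Genes were named by a rule. It takes clusters with 2 or more members, the 15 highest folds, the 5 highest at coding gene ends, the 10 farthest from coding genes, the 3 on each side of the limit, and the 3 highest and up to 2 without a summit of each other list. Genes named outside it, such as n-TVaac3, n-TVaac8, n-TEttc4, n-TCgca52, Gtf3c1 and Maf1, were chosen after their values were seen.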

Additional observations from a re-analysis of the deposited data

How the results depend on the processing

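With 65 alternatives run, 42 values stayed within 1.5 times the count, or within the interval of the share or median, and 23 did not. A window of 500 bp gave 13.6% of tRNA genes and 2500 bp 23.0%, and with 500 bp 17 members were at coding gene ends. Peaks at or above the median fold, by construction fewer, gave 31 tRNA genes (7.93%) near 23 peaks in 23 clusters or single genes, with 11 at coding gene ends and 5 within 100 bp. They also gave 15 Pol III machinery, 9 processing and 3 other Pol III genes. Peaks at or above the median −log10 q gave 32 tRNA genes (8.18%) near 24 peaks in 24 clusters or single genes, with 13 at coding gene ends and 5 within 100 bp. They also gave 19 Pol III machinery, 11 processing and 2 other Pol III genes. Within 50 bp there were 2 members and within 250 bp 29. The median fold stayed between 5.58 and 5.92. Chromosome X has 17 tRNA genes and added none. No paired analysis was possible because the list was made from merged replicates. The depth behind low folds is unknown.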
